A study of Mus musculus with 4 samples.

Results

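The genes described here are 10 members of the Nodal and activin signalling pathway, measured in mouse embryonic stem cells with and without valproic acid (VPA). They are the ligand genes Nodal, Gdf3, Inhba and Inhbb, the co-receptor gene Tdgf1, the receptor gene Acvr2b, and the inhibitor genes Lefty1, Lefty2, Cer1 and Smad7. A gene was taken when a probe set was annotated with its symbol alone. All 10 were found, each with 1 probe set, among 19938 genes so represented and 35556 probe sets in all.

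The cells were E14, an established line of mouse embryonic stem cells, and gave 4 arrays of total RNA: 2 from untreated cells and 2 from cells that received 0.5 mM VPA for 4 h. VPA, an antiepileptic drug, blocks histone deacetylases, the enzymes that take acetyl groups off histones, and the study's title asks what a low level of it does to expression within hours. Both groups grew in serum and leukemia inhibitory factor on primary embryonic fibroblasts stopped from dividing with mitomycin C, so each RNA sample can hold fibroblast RNA. The labels number the arrays as replicates without saying that they came from separate cultures, so p-values below reflect array-to-array spread alone, possibly of technical origin.

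Nodal and the activins are secreted dimers of the TGF-beta family. They bring together type II receptors such as ACVR2B and type I receptors such as ALK4, which phosphorylate SMAD2 and SMAD3; these enter the nucleus with SMAD4 and bind DNA with partners such as FOXH1. Nodal and GDF3 need the co-receptor Cripto (encoded by Tdgf1), whereas activins, dimers of the subunits encoded by Inhba and Inhbb, do not. Lefty1, Lefty2 and Cerberus (Cer1) hold the ligands back outside the cell, and SMAD7 blocks the receptors from within. In the embryo the pathway patterns the epiblast and drives formation of mesoderm and endoderm, and many of its inhibitors are themselves induced by it.

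With VPA, signals of 3 of the 4 ligand genes were lower and that of Nodal itself was not distinguishable from untreated. Inhbb was 1.51 times higher in untreated than in VPA cells, Gdf3 1.47 times and Inhba 1.32 times. These genes had an unadjusted p under 0.05 in limma's moderated test, in which 2.71% of all genes were at that level and lower with VPA. After Benjamini-Hochberg adjustment in limma none of them passed 0.05, nor did any of the 35556 probe sets (0%), of which 3269 had an unadjusted p under 0.05. None of the co-receptor, receptor and inhibitor genes had an unadjusted p under 0.05 in limma, a level that 8.61% of all genes reached in either direction. The differences of Acvr2b, Lefty1, Lefty2, Smad7 and Tdgf1 depended on which untreated array was used, and that of Lefty2 changed sign.

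Inhbb encodes the beta-B subunit of activin. Its log2 signal was 5.96 and 5.99 on the untreated arrays and 5.37 and 5.39 on the VPA arrays. Both VPA arrays lay well below both untreated ones, and the arrays within a group differed by far less than the groups did. The log2 difference was -0.59 ± 0.10 (SE), with a 95% interval from -0.86 to -0.33 and an adjusted p of 0.462 in limma. By unadjusted p Inhbb stood at rank 157 of all probe sets, and 0.231% of genes had a lower difference.

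Gdf3 encodes a ligand related to Nodal that pluripotent cells produce. Untreated arrays gave log2 signals of 9.59 and 9.58, and VPA arrays 9.11 and 8.96. The groups were again apart, and the VPA arrays differed from each other more than the untreated ones did. The log2 difference was -0.55 ± 0.11 (SE), with a 95% interval from -0.85 to -0.26 and an adjusted p of 0.472 in limma. In RNA from whole cultures, fewer cells of a type and less RNA per cell cannot be told apart.

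Inhba encodes the beta-A subunit of activin. Its log2 signal was 6.67 and 6.77 in untreated cells and 6.23 and 6.41 in VPA cells. The groups did not overlap, and the log2 difference was -0.40 ± 0.12 (SE), with a 95% interval from -0.72 to -0.089 and an adjusted p of 0.504 in limma. Its unadjusted p in limma rose from 0.022 to 0.084 without untreated replicate 2 and to 0.114 without VPA replicate 1. Those of Inhbb and Gdf3 stayed under 0.05 with each of the 4 arrays left out in turn, where their log2 differences ran from -0.61 to -0.58 and from -0.63 to -0.48.

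Nodal, the ligand that gives the pathway its name, had log2 signals of 8.34 and 8.26 in untreated cells and 8.26 and 8.34 in VPA cells. The groups covered almost the same range. The log2 difference was 0.0031 ± 0.11 (SE), with a sign that turned with either rescaling of the arrays (-0.045 and -0.0026) and without untreated replicate 2 or VPA replicate 2. Its 95% interval ran from -0.28 to 0.29. Whether Nodal and the other ligand genes differed in their response was not tested.

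**Figure D1:**
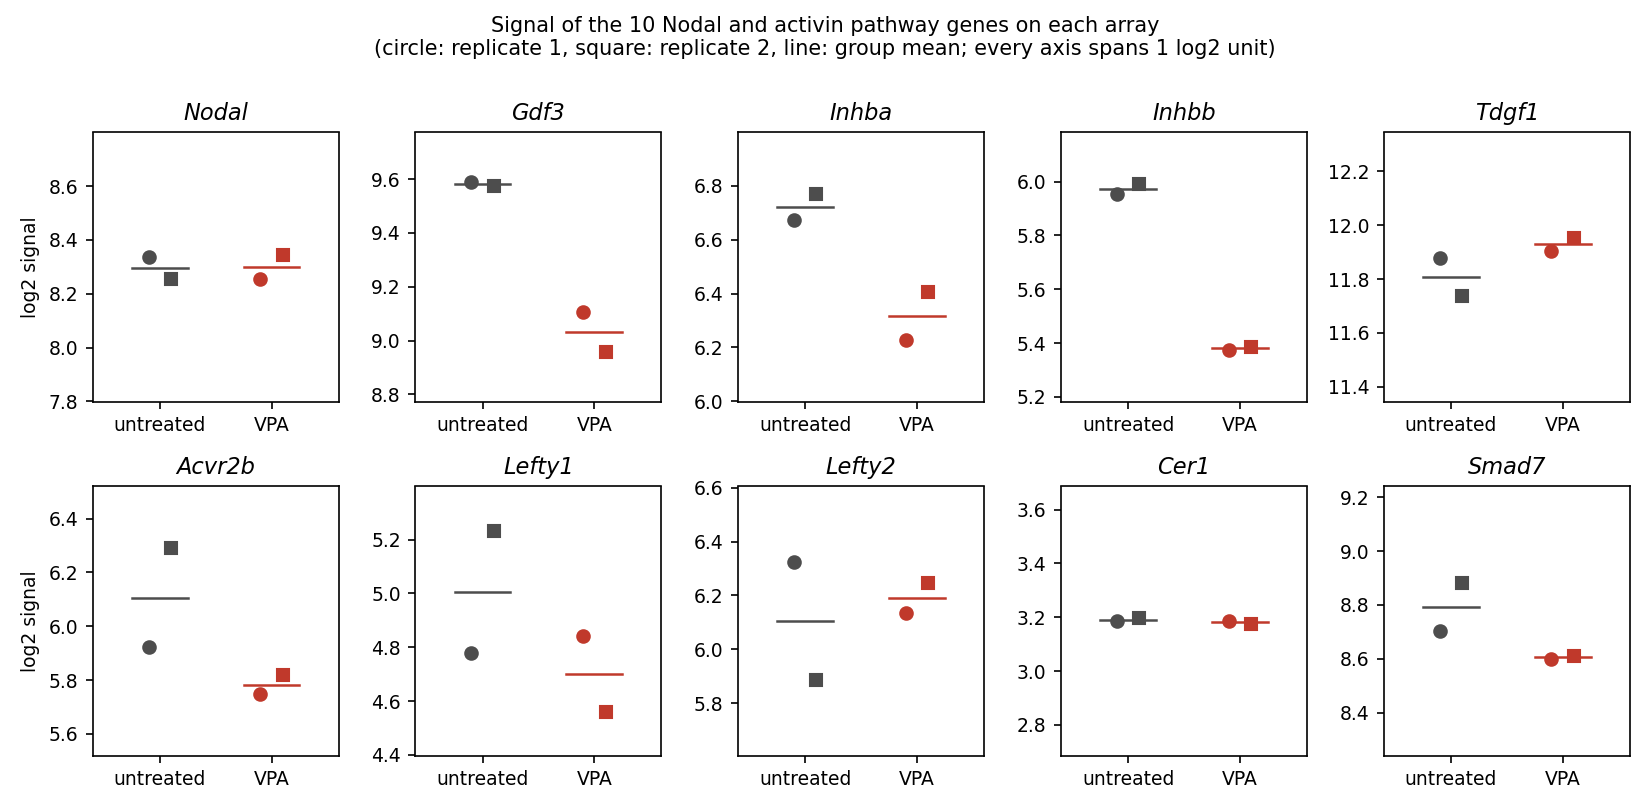
Each panel plots 1 gene, with the log2 signal on the vertical axis and the untreated and VPA groups side by side; circles are replicate 1, squares replicate 2 and lines the group means of 2 arrays. Inhbb, Gdf3 and Inhba have both VPA arrays clear below both untreated arrays, while the Nodal and Cer1 groups lie at the same level and the untreated arrays of Lefty1, Lefty2 and Acvr2b stand 0.46, 0.44 and 0.37 apart.

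The promoters of the activin subunit genes, whose signals were both lower with VPA, are shown beside that of Nodal, whose signal was not. Each line gives the 250 bases before the annotated transcription start (RefSeq, GRCm38.p6), 5′ to 3′ on the gene's strand, with every CG dinucleotide in capitals. The Inhbb window is chr1:119422249-119422498 on the minus strand, the Inhba window chr13:16011601-16011850 on the plus strand and the Nodal window chr10:61417722-61417971 on the plus strand.
Inhbb: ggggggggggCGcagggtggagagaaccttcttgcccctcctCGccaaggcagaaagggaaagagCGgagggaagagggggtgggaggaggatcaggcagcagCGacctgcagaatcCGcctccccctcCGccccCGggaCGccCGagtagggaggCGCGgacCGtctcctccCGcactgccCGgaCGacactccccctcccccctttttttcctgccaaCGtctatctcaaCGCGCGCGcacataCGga
Inhba: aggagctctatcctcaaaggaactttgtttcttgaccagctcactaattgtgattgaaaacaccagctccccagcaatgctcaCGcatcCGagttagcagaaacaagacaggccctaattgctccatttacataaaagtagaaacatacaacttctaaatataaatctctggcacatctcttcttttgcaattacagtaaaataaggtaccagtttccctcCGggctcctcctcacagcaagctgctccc
Nodal: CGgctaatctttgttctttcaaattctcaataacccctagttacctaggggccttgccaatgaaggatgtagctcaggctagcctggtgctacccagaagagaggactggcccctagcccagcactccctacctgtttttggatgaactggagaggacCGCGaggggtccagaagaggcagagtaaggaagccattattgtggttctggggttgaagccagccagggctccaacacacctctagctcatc
The subunit promoters differed in composition. The Inhbb window held 21 CG dinucleotides and 68.0% G or C, and 83.7% of the 32851 windows in the table held fewer CG. The Inhba window held 3 CG and 43.2% G or C, with the letters TATAAA starting 91 bases before the start, a motif found in 7.59% of windows on the strand of the gene. The Nodal window also held 3 CG, at 53.2% G or C, and 29.0% of windows held fewer than these. Of the subunit genes, both with lower signals, 1 thus had a CG-rich window and 1 a CG-poor one.

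Tdgf1 encodes Cripto, the membrane-anchored co-receptor through which Nodal and GDF3 reach the type I receptor. Log2 signals were 11.88 and 11.74 in untreated cells and 11.90 and 11.95 with VPA. The VPA arrays were the higher ones, but only 0.025 separated the groups. The log2 difference was 0.12 ± 0.11 (SE), with a 95% interval from -0.17 to 0.42 and an adjusted p of 0.788 in limma, and leaving out untreated replicate 2 gave 0.049, leaving out replicate 1 gave 0.19.

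Promoter windows of 6 of the 10 genes were used (Nodal, Inhba, Inhbb, Tdgf1, Acvr2b and Cer1). They were searched for letter patterns based on those recognised by the pathway's own factors. The entry for Smad7 was left out, so its promoter was not searched. The searches were TGTNNATT, CAGAC, a SMAD half-site, and GTCTAGAC, the palindromic SMAD element, each on both strands. TGTNNATT is a loose FOXH1-type pattern in which N is any base, so a match need not be a FOXH1 site. None of the 3 contains another. Tdgf1 alone of the 6 held TGTNNATT, which 10.9% of all windows held. It had 2 matches, starting 127 and 101 bases before the transcription start, with a CAGAC at 113 bases lying between them. The stretch, chr9:110946247-110946290 on the minus strand, is shown 5′ to 3′ with the 3 matches in capitals, the FOXH1-type ones appearing as their reverse complement.
Tdgf1: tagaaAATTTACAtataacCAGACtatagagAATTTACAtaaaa
CAGAC was also found in the Acvr2b and Cer1 windows, 233 and 213 bases before the start, and in 42.2% of all windows. GTCTAGAC was found in 0 of the 6 and in 0.167% of all windows. A match is a description of letters, and the windows of Inhbb, Inhba and Nodal held none of the 3 motifs.

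Acvr2b encodes a type II receptor that binds activins and Nodal. On the untreated arrays its log2 signal was 5.92 and 6.29, and on the VPA arrays 5.75 and 5.82. The VPA arrays were close together and below both untreated arrays, of which replicate 2 was the higher. The log2 difference was -0.32 ± 0.16 (SE), with a 95% interval from -0.73 to 0.083 and an adjusted p of 0.598 in limma. It was -0.14 with untreated replicate 2 left out and -0.51 with untreated replicate 1 left out, so its size depended on which untreated array was used.

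Lefty1 and Lefty2 are close relatives that antagonise Nodal and are well known targets of the pathway in embryonic stem cells. They lie on the same chromosome, with 3 other annotated gene starts between them. The log2 signal of Lefty1 was 4.78 and 5.23 in untreated cells and 4.84 and 4.56 in VPA cells. That of Lefty2 was 6.32 and 5.89 in untreated cells and 6.13 and 6.24 in VPA cells. Both genes had groups that overlapped, and on untreated replicate 2 they lay at opposite extremes, Lefty1 at its highest value and Lefty2 at its lowest.

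The log2 difference of Lefty1 was -0.30 ± 0.20 (SE, adjusted p = 0.694 in limma), against -0.075 with untreated replicate 2 left out and -0.53 with untreated replicate 1 left out. The log2 difference of Lefty2 was 0.085 ± 0.18 (SE, adjusted p = 0.922 in limma), and it turned to -0.13 with untreated replicate 2 left out and reached 0.30 with replicate 1 left out. The 95% intervals ran from -0.82 to 0.21 and from -0.37 to 0.54. Both values are uncertain in a further way, because the genes are close paralogs and cross-reaction of their probes was not tested.

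Smad7 encodes the inhibitory SMAD that acts inside the cell on the receptors. Untreated cells had log2 signals of 8.70 and 8.88, and VPA cells 8.60 and 8.61. The groups were 0.093 apart, less than the distance between the untreated arrays. The log2 difference was -0.19 ± 0.12 (SE), with a 95% interval from -0.49 to 0.12 and an adjusted p of 0.680 in limma; the value was -0.098 with untreated replicate 2 left out and -0.27 with replicate 1 left out.

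Cer1 encodes Cerberus, a secreted antagonist of Nodal made by anterior visceral endoderm. Its log2 signal was 3.19 and 3.20 in untreated cells and 3.19 and 3.18 in VPA cells, a difference of -0.0097 ± 0.10 (SE) that became 0.0016 when the arrays were quantile-normalized again. The signal lay at the 36.9th percentile of all probe sets, below the median probe set, and no detection call was used here, so it is not known whether Cer1 was above background. The other 9 genes lay between the 63.0th and the 99.3rd percentile. Percentiles describe the brightness of probe sets only, because probes differ in affinity and levels of different genes cannot be compared on the array.

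**Figure D2:**
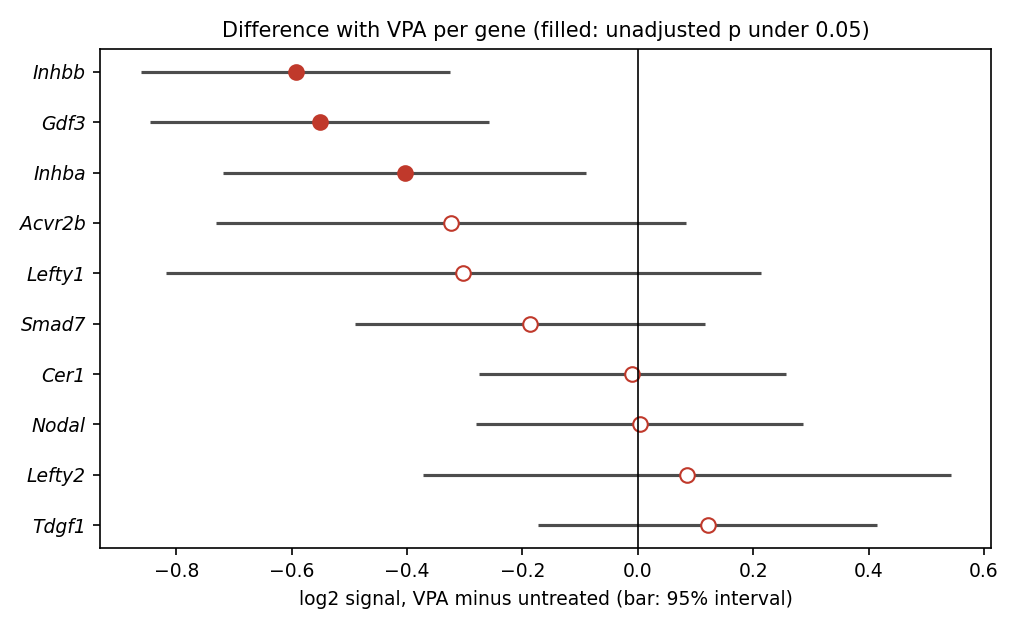
The horizontal axis gives the log2 signal of VPA minus untreated cells for each of the 10 genes, with the 95% interval of limma as a bar and filled points for an unadjusted p under 0.05. The intervals of Inhbb, Gdf3 and Inhba lie below 0 and those of the other 7 genes hold 0.

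As a list, 7 of the 10 genes had a lower mean with VPA and 3 a higher one, while 46.3% of all genes had a lower mean. The signs of Nodal, Lefty2 and Cer1 turned in some of the alternatives, as given above. The median log2 difference was -0.24 over the 10 genes and 0.015 over all genes. Leaving out untreated replicate 2 gave a median of -0.12 for the 10, and leaving out replicate 1 gave -0.36. At an unadjusted p under 0.05 in limma there were 3 genes lower and 0 higher, beside 2.71% and 5.90% of all genes. Without untreated replicate 1 the count was 5, with Acvr2b and Lefty1 added, and over all 35556 probe sets it was 4242 in place of 3269. It was 2 without untreated replicate 2 or VPA replicate 1.

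The groups did not overlap for 5 genes that were lower with VPA (Inhbb, Gdf3, Inhba, Acvr2b and Smad7) and for 1 that was higher (Tdgf1). Over all genes this held for 18.1% lower and 24.1% higher. Only Inhbb among the 10 was at least 1.5-fold lower without overlap, a distance that 0.266% of all genes reached. With 2 arrays in each group, the smallest two-sided p of an exact permutation test is 0.333.

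**Figure D3:**
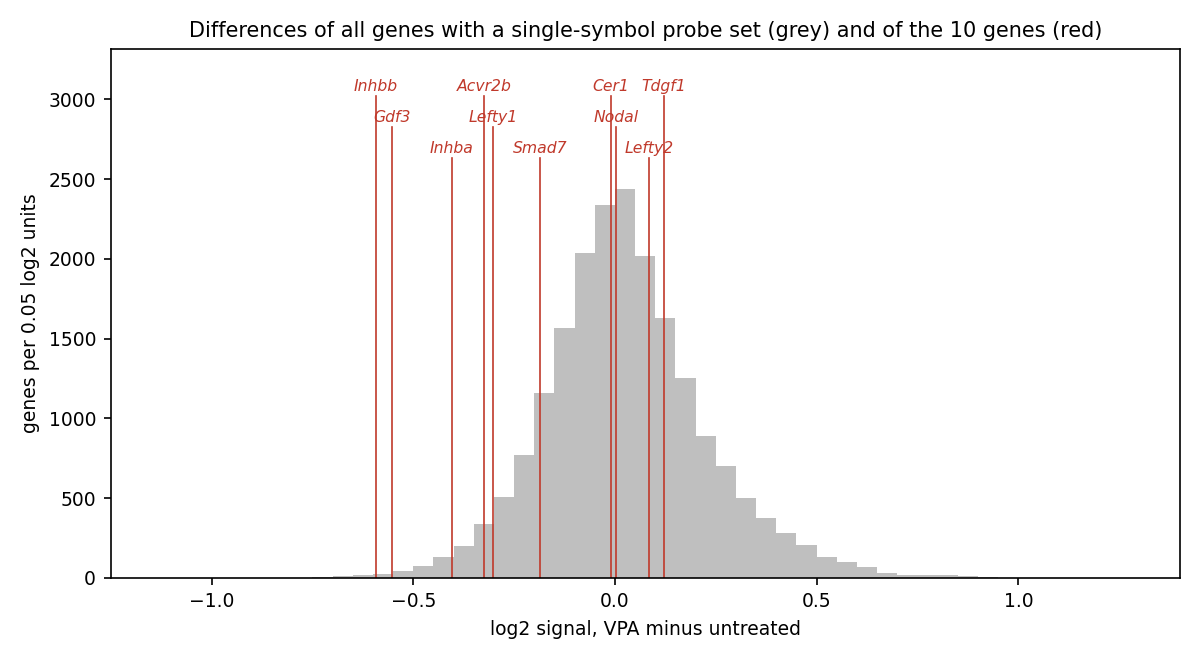
The grey bars count the 19938 genes by their log2 difference, VPA minus untreated, in steps of 0.05, and each red line marks 1 of the 10 genes. Inhbb and Gdf3 lie in the far lower tail, where 0.231% and 0.346% of genes were lower still, and Nodal and Cer1 lie at the centre.

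The rest of the pathway was read from a list of 64 names arranged by role, of which 60 had a probe set of their own. The other 4 were not analysed here. Of the 60 genes, 35 had a lower and 25 a higher mean with VPA, with a median log2 difference of -0.043. At an unadjusted p under 0.05 in limma 6 were lower and 1 higher, beside 2.71% and 5.90% of all genes, and 0 passed after adjustment (smallest adjusted p = 0.472). The count of 7 was 2 without VPA replicate 1 and 3 without VPA replicate 2, where the count over all 35556 probe sets also went down, from 3269 to 2118 and 1827.

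The remaining ligand genes, including those of the other inhibin subunits and of the TGF-betas, showed no difference at that level in 8 measured genes. Their log2 differences ran from -0.17 to 0.15. Inha, the inhibin alpha subunit, which with a beta subunit makes an antagonist of activin, differed by -0.17 ± 0.14 (SE). Tgfb1 differed by 0.12 ± 0.12 and Tgfb3 by -0.11 ± 0.11.

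Receptor genes had a median log2 difference of 0.14 over 7 genes, with 4 higher and 3 lower. Acvr1b encodes ALK4, the type I receptor of activin and Nodal. Its log2 signal was 6.21 and 6.47 in untreated cells and 6.79 and 6.73 in VPA cells. Both VPA arrays were the higher ones, with a log2 difference of 0.42 ± 0.13 (SE) and an adjusted p of 0.504 in limma. Acvr2a, the other activin type II receptor gene, differed by 0.41 ± 0.21, opposite in sign to Acvr2b, and its untreated arrays stood at 7.04 and 6.48. Tgfbr1 differed by 0.15 ± 0.15.

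Genes for processing and extracellular control of the ligands had 7 lower and 3 higher means, while 46.3% of all genes had a lower mean. Fst encodes follistatin, which binds activin and blocks it. Its signal on the log2 scale was 5.20 and 5.42 in untreated cells and 4.94 and 4.95 in VPA cells, a difference of -0.36 ± 0.12 (SE, adjusted p = 0.512 in limma). Follistatin and both activin subunits thus had lower signals without overlap, as did 18.1% of all genes. Ltbp4 and Ltbp1, which encode binding proteins of latent TGF-beta, differed by -0.24 ± 0.14 and 0.20 ± 0.12, and Furin, a protease that matures the ligands, by -0.15 ± 0.11.

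Of 10 genes of SMADs and their partners, 4 had a lower and 6 a higher mean, while 46.3% of all genes had a lower mean. At an unadjusted p under 0.05 in limma 2 of the 10 were lower, beside 2.71% of all genes. Smad2 differed by 0.13 ± 0.16 (SE), Smad3 by 0.26 ± 0.14 and Smad4 by -0.045 ± 0.13. Foxh1, the partner that brings SMAD2 and SMAD3 complexes to Nodal targets, had log2 signals of 5.50 and 5.64 in untreated cells and 5.20 and 4.87 in VPA cells. The groups did not overlap, as for 18.1% of all genes in that direction, and the log2 difference of Foxh1 was -0.53 ± 0.15 (adjusted p = 0.495 in limma). The coactivator acetyltransferase genes Crebbp and Ep300 differed by -0.53 ± 0.14 and -0.21 ± 0.10.

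Among intracellular inhibitors, 7 of 11 genes had a lower mean, beside 46.3% of all genes. Pmepa1, a TGF-beta-induced protein that sequesters SMADs, had log2 signals of 7.80 and 7.74 in untreated cells and 7.46 and 7.42 in VPA cells. Its groups were apart, with a log2 difference of -0.33 ± 0.11 (SE, adjusted p = 0.504 in limma). Smurf2, a ubiquitin ligase for receptors and SMADs, differed by 0.25 ± 0.10. Ski, a SMAD corepressor gene, differed by -0.32 ± 0.21, with untreated arrays at 7.64 and 8.20.

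Of 14 genes that the pathway is known to regulate in embryos or stem cells, 11 had a lower mean with VPA, beside 46.3% of all genes, with a median log2 difference of -0.18. At an unadjusted p under 0.05 in limma 2 were lower, Fgf5 and Nanog, beside 2.71% of all genes, and 0 passed adjustment. Fgf5, a marker of the epiblast, had log2 signals of 4.17 and 4.27 in untreated cells and 3.50 and 3.72 in VPA cells, and differed by -0.61 ± 0.13 (SE, adjusted p = 0.472 in limma). Nanog, a pluripotency factor, had log2 signals of 10.88 and 10.65 in untreated cells and 10.18 and 10.39 in VPA cells, and differed by -0.48 ± 0.14 (adjusted p = 0.503). Bmp4 differed by -0.29 ± 0.13. For both Fgf5 and Nanog the VPA arrays lay below the untreated ones, as for 18.1% of all genes. Other pathways also regulate these genes, so the list is no readout of Nodal signalling alone.

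**Figure D4:**
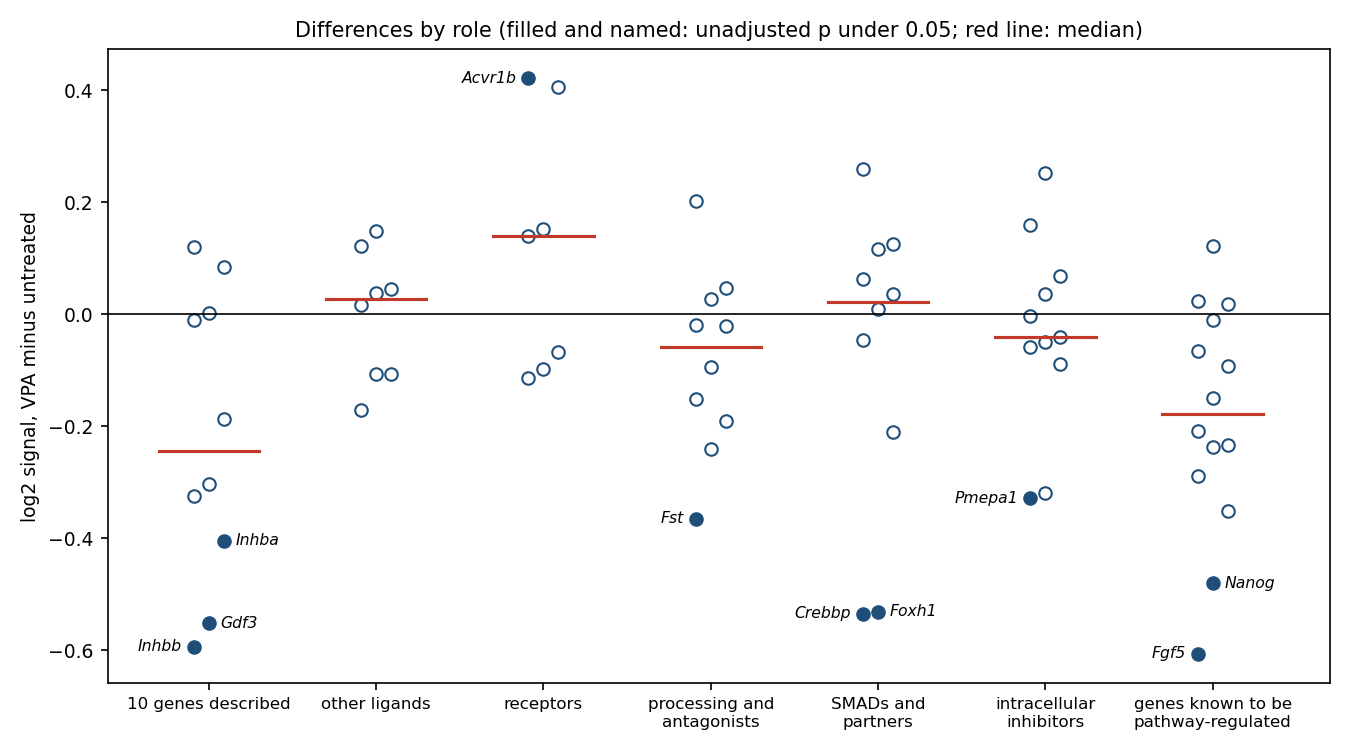
Each point is 1 gene, placed by its role on the horizontal axis and by its log2 difference, VPA minus untreated, on the vertical axis; filled, named points have an unadjusted p under 0.05 and red lines are medians. Of the named points only Acvr1b lies above 0, and the median of the 10 genes described is -0.24.

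The label of pluripotent cells was checked against their markers. Log2 signals of Pou5f1 (Oct4) lay between 10.63 and 10.96 on the 4 arrays and those of Dppa5a between 12.40 and 12.66, with overlap between the groups for both. Of 11 measured pluripotency markers, 9 had a lower mean with VPA, as did 46.3% of all genes. At an unadjusted p under 0.05 in limma 2 were lower, Nanog and Utf1 (2.71% of all genes were), and 0 passed adjustment (smallest adjusted p = 0.503). The 2 with a higher mean, named after their values were seen, were Sox2 at 0.20 ± 0.19 (SE) and Dppa5a at 0.11 ± 0.13. The linear signals of the 11 summed to 15837 and 14257 in untreated and 14281 and 14631 in VPA cells, so that sum overlapped between the groups. Dppa5a, the brightest marker, weighs most in that sum, which therefore does not stand for the 9 with a lower mean. Array medians of the log2 signal over the 11 were 10.135 and 9.885 in untreated and 9.649 and 9.833 in VPA cells, without overlap. Tdh was not analysed here.

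Fibroblasts are known to secrete activin, and their markers are therefore given beside Inhba and Inhbb. Of 14 fibroblast markers, 11 had a lower mean with VPA, beside 46.3% of all genes. The median log2 difference of the markers was -0.073. Their linear signals summed to 3070 and 3194 in untreated and 2986 and 2999.9 in VPA cells, without overlap. Without Sparc, left out after the values were seen, the sums were 2524 and 2612 against 2511 and 2536, which overlapped. The 3 brightest differed by -0.018 ± 0.11 (Vim, SE), -0.0098 ± 0.11 (Fn1) and -0.26 ± 0.11 (Sparc), of which Vim and Fn1 are not specific to fibroblasts. Vim and Fn1 make up most of the sums without Sparc, so those sums say little about fibroblast RNA. At an unadjusted p under 0.05 in limma Ccdc80 was lower (-0.31) and Thy1 higher (0.31), named after their values were seen. Of all genes, 2.71% were lower and 5.90% higher at that level, and 0 of the markers passed adjustment. The part of fibroblast RNA in the lower activin subunit signals was not tested.

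Mesendoderm markers were dim, with array medians over 9 genes between 3.49 and 3.75, and 0 of them had an unadjusted p under 0.05 in limma, beside 8.61% of all genes; 0 passed adjustment. The brightest, Fgf8, Eomes and Gsc, differed by -0.093 ± 0.10 (SE), 0.019 ± 0.11 and -0.23 ± 0.11. Across probe sets, the SD of the difference between replicate arrays was 0.311 in untreated and 0.285 in VPA cells, and array medians lay between 3.80 and 3.82. For 3 of the 10 genes the untreated arrays differed by more than 0.3, and for 0 of them the VPA arrays did.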

How the data were processed

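Total RNA of 4 samples, 2 untreated and 2 VPA-treated, was hybridised to 1-colour Affymetrix arrays with biotin-labelled targets. The deposited values are log2 signals per probe set, which the authors computed by RMA with Affymetrix Expression Console 1.1, according to the submitters' processing notes; RMA subtracts background, quantile-normalizes and summarises probes. The set of arrays that RMA normalized jointly is unknown here. Gene names came from the platform annotation. Of 35556 probe sets, 21789 had 1 symbol, 1621 several and 12146 none here. Where a gene had more than 1 probe set, the one of highest mean over the arrays stood for it.

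Groups were compared over all probe sets with lmFit and eBayes of limma 3.58.1 (R 4.3.3), with treatment as the only term, two-sided, with Benjamini-Hochberg adjustment and a threshold of 0.05. Residual degrees of freedom were 2, and moderation added 2.93. For arrays their number limits the precision. The script was tested on simulated data with changes larger than those of the genes described, so that test does not cover differences of their size. Alternatives were 2 rescalings, a filter on dim probe sets, trend and robust moderation, a replicate block, single-symbol probe sets only, gene means and leaving out each array.

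All 10 genes are named. In each role list the 3 genes of smallest unadjusted p are named, with Foxh1, Smad2, Smad3, Smad4, Furin, Acvr1b and Acvr2a always, and of each marker list the 3 with the highest untreated mean, with Pou5f1 and Nanog. The genes, lists and rules were chosen with earlier results of these data known. Promoter sequences are RefSeq's (GRCm38.p6), and no build is stated for the array annotation in the labels.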

Additional observations from a re-analysis of the deposited data

How the results depend on the processing

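Inhbb, Gdf3, Inhba, Acvr2b, Lefty1, Smad7 and Tdgf1 kept their direction under all 11 alternatives, and 0 of the 10 genes passed adjustment in any. Most alternatives could not have turned a direction. The dim filter, the other moderation, the replicate block, single-symbol probe sets and gene means leave the log2 difference of these genes as it was. Leaving out 1 array cannot turn it where the groups do not overlap, which holds for all of these but Lefty1. The log2 difference of Nodal turned to -0.045 after a second quantile normalization, -0.0026 with array medians subtracted, and ran from -0.041 to 0.047 with single arrays left out, below 0 without untreated replicate 2 or VPA replicate 2. Cer1 turned to 0.0016 after the second normalization and could not be fitted with dim probe sets left out; Lefty2 ran from -0.13 to 0.30 with single arrays left out, below 0 only without untreated replicate 2. The median of the 10 genes was -0.28 after the second normalization, -0.30 with dim probe sets left out (where Cer1 is missing) and from -0.36 to -0.12 with single arrays left out. Leaving out arrays gave 2 to 5 of the 10 genes at an unadjusted p under 0.05, and 2 to 8 of the other pathway genes. The replicate numbers are shared by the groups. The deviations of same-numbered arrays correlated at -0.097 across probe sets and at -0.178 across those with a mean signal at or above the median. With the replicate block 3 of the 10 genes and 5 other pathway genes were at that level, and 0 were called. Over all 35556 probe sets the count was 2576 with the block, against 3269 without it. Leaving out an array leaves a group of 1, whose spread is taken from the other group. The remaining causes of these shifts were not tested. With 2 arrays a group, differences of the size seen here cannot be told from the spread after adjustment.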

Other observations

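Primitive endoderm markers, which would show the lineage that makes Cerberus and some of the Lefty1 in the embryo, had means in both directions. Of 12 genes 8 had a lower and 4 a higher mean with VPA, while 46.3% of all genes had a lower mean. The brightest, Lamb1, Lama1 and Col4a1, differed in log2 signal by 0.23 ± 0.11 (SE), -0.25 ± 0.11 and -0.083 ± 0.13. At an unadjusted p under 0.05 in limma Sox7 (-0.59) and Gata6 (-0.42) were lower and Dab2 (0.36) higher, named after their values were seen, beside 2.71% of all genes lower and 5.90% higher, and 0 passed adjustment (smallest adjusted p = 0.485).

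Nodal ranged over only 0.088 on the 4 arrays. The rule for naming the genes with the most similar profile asked for a range of at least 0.5, which leaves out flat profiles, so no gene is named as like Nodal.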
